A study of Mus musculus with 3 samples.

Results

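The respiratory chain of the inner mitochondrial membrane was described in sorted mouse retinal horizontal cells at postnatal days 6 (P6), 8 (P8) and 11 (P11). Members were taken by gene symbol, as the nuclear subunit genes whose symbols start Nduf, Cox, Uqcr or Atp5 with a subunit letter or number, Sdha to Sdhd, and the protein-coding genes of the mitochondrial genome. They came to 98 of the 32285 features in the files, 85 of the nuclear genome and 13 of the mitochondrial genome. By complex, the nuclear members were 36 of complex I, 4 of complex II, 8 of complex III, 20 of complex IV and 17 of complex V. Ndufa4 and Ndufa4l2 were placed with complex IV, where the NDUFA4 protein is found, although their symbols name complex I. The subunit genes Ndufab1 of complex I and Cyc1 of complex III did not match the symbol rule and were counted with the electron carriers.

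All 3 groups had the same genotype, Cx57icre;Ai14, in which a Cre recombinase driven from the connexin 57 gene switches on a red fluorescent reporter. Papain-dissociated retinas were sorted for labelled cells, and each age gave 1 droplet library of the 10x Genomics 3' chemistry, which counts transcripts as unique molecular identifiers (UMIs). The labels do not say how many animals a library pooled. With 1 library per age there was no replicate and no test. What differs by age here cannot be told apart from what differs by library, and every interval covers counting error only.

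Horizontal cells are the inhibitory neurons that feed back onto photoreceptor terminals, and the retina is among the tissues of highest oxygen use. Complex I takes electrons from NADH and complex II from succinate, and both pass them to ubiquinone. Complex III hands them to cytochrome c, complex IV to oxygen, and complexes I, III and IV pump protons whose return through complex V, the ATP synthase, makes ATP. Subunits of complexes I, III, IV and V come from both the nuclear and the mitochondrial genome and are joined in the inner membrane, while complex II is wholly nuclear. Mitochondrial genes are transcribed inside the organelle as long precursors that are cut into separate messages.

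Horizontal cells were barcodes with at least 1000 genes, at most 10% of UMIs from mitochondrial genes and a UMI of at least 2 of the lineage genes Lhx1, Onecut1 and Onecut2. They numbered 7145 of 9896 barcodes at P6, 3153 of 4635 at P8 and 4757 of 5517 at P11, with medians of 12161, 20671 and 22106 UMIs per cell. Between 8 and 15 barcode sequences were shared by any pair of libraries. Summed horizontal-cell markers came to 8094, 12295 and 19666 counts per 1000000 UMIs (CPM), with all 11 detected at each age. The 11 include the gate genes Lhx1, Onecut1 and Onecut2, so part of this sum was set by the selection of cells. Microglial markers summed to between 4.30 and 11.5 CPM. Müller glial markers came to 210, 201 and 298 CPM, amacrine markers to 7012, 9540 and 4728 CPM and ganglion cell markers to 2035, 2284 and 1385 CPM. The part that other cells had in the values below was not tested.

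Nuclear respiratory chain transcripts were highest in the P8 library, and mitochondrial-genome transcripts in the P11 library. Raw counts summed over the horizontal cells of a library put the nuclear members at 34434 CPM at P6, 54004 CPM at P8 and 41471 CPM at P11, with Poisson 95% intervals from 34394 to 34474, from 53947 to 54062 and from 41431 to 41509.9 CPM. Their summed level was 1.57-fold higher at P8 than at P6 (log2 0.65), at P11 0.77 of that at P8 (log2 -0.38), and 1.20-fold higher at P11 than at P6 (log2 0.27). The mitochondrial members summed to 33009.7 CPM at P6, 34155 CPM at P8 and 45761 CPM at P11. That sum was 1.03-fold at P8 relative to P6 and 1.39-fold higher at P11 than at P6. Nuclear UMIs per mitochondrial UMI therefore stood at 1.04 at P6, 1.58 at P8 and 0.906 at P11.

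Since the cell filter caps the mitochondrial share of a cell, the mitochondrial sum was also taken with other limits. With at most 5% of UMIs from mitochondrial genes it was 30874 CPM at P6, 32396 CPM at P8 and 40628 CPM at P11. With no limit it was 36384 CPM at P6, 36766 CPM at P8 and 46718 CPM at P11. The order of the 3 libraries was the same in each case.

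By complex, the nuclear sums ran in parallel for complexes I, III, IV and V. Nuclear complex I genes summed to 10863 CPM at P6, 17586 CPM at P8 and 13164 CPM at P11. Complex III genes summed to 2852 CPM at P6, 4504 CPM at P8 and 3567 CPM at P11. Complex IV genes summed to 9779.9 CPM at P6, 15443 CPM at P8 and 11583 CPM at P11. Each of these sums was highest at P8 and stood between its P6 and P8 levels at P11, as did nuclear complex V at 10392 CPM at P6, 15798 CPM at P8 and 12547 CPM at P11. Complex II had the same order of ages, with 548 CPM at P6, 673 CPM at P8 and 610.0 CPM at P11. Its P8 to P6 difference was the smallest of the 5 nuclear sums (log2 0.30 at P8 over P6).

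The mitochondrial sums did not run alike. Those of complex I genes were 5494 CPM at P6, 4353 CPM at P8 and 6928 CPM at P11, lowest at P8. For complex IV they were 16614 CPM at P6, 16697 CPM at P8 and 21627 CPM at P11, alike at P8 and P6 on this scale. The pair of complex V genes summed to 6482 CPM at P6, 7305 CPM at P8 and 11139.8 CPM at P11, higher at each later age.

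**Figure D1:**
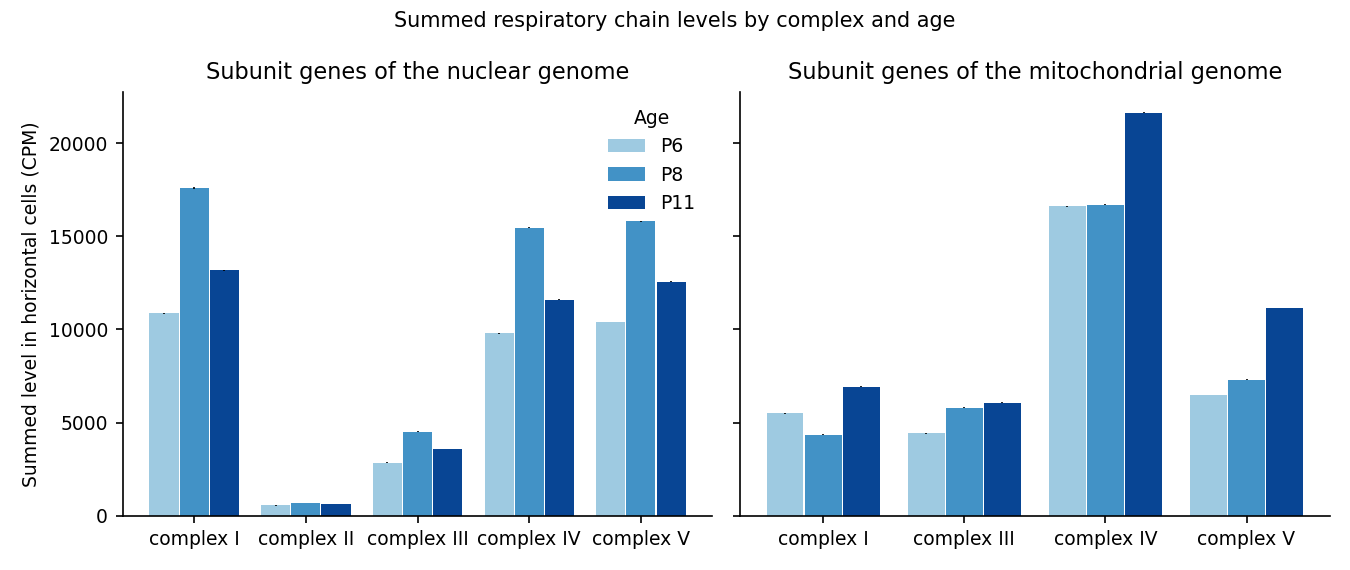
Summed level in horizontal cells (CPM) of the subunit genes of each complex, for the nuclear genome (left) and the mitochondrial genome (right), with 1 bar per library and 95% counting intervals as error bars. Nuclear sums of all 5 complexes peak at P8, that of complex II by the least, while the mitochondrial complex I sum is lowest there, at 4353 CPM.

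A member was compared between ages only with 20 CPM or more at the higher one, and was counted as apart from 1.5-fold upward. Of the 85 nuclear members, 77 reached that level at some age, and the other 8 were complex IV isoforms of low level described with that complex. At P8 over P6, 46 of the 77 were higher by 1.5-fold, 0 lower and 31 between, against 7.97% higher and 21.7% lower of all 7067 genes tested. The median log2 ratio of these 77 was 0.63, against -0.14 over all genes. At P11 over P8, 0 were higher, 11 lower and 66 between, against 10.4% higher and 4.55% lower of 6770 genes, with a median of -0.41 against 0.07. At P11 over P6, 11 were higher and 1 lower, against 7.35% and 12.3% of 7161 genes, with a median of 0.23 against -0.08. The 3 comparisons share libraries, the P8 library being the later age in one and the earlier age in another.

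These counts rested partly on the scaling and on the cells used. The TMM factors of edgeR raised every log2 ratio by 0.28 at P8 over P6 and by 0.20 at P11 over P6. The tested genes were not level after this, and leaned to the higher side in both of these pairs. All genes then split into 20.7% higher and 11.4% lower at P8 over P6, 7.60% and 7.18% at P11 over P8, and 14% and 6.89% at P11 over P6. With TMM, 66 nuclear members were higher at P8 than at P6, 17 were lower at P11 than at P8, and at P11 over P6 there were 22 higher and 0 lower. Sdhb, Uqcrc2, Uqcrfs1, Cox8a, Atp5g2, mt-Cytb and mt-Co2, said below to pass 1.5-fold in no pair, passed it with TMM factors in some pair. In cells of like Malat1 level, described further on, 30 of the 77 members were higher at P8 than at P6, against 6.30% of all genes.

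**Figure D2:**
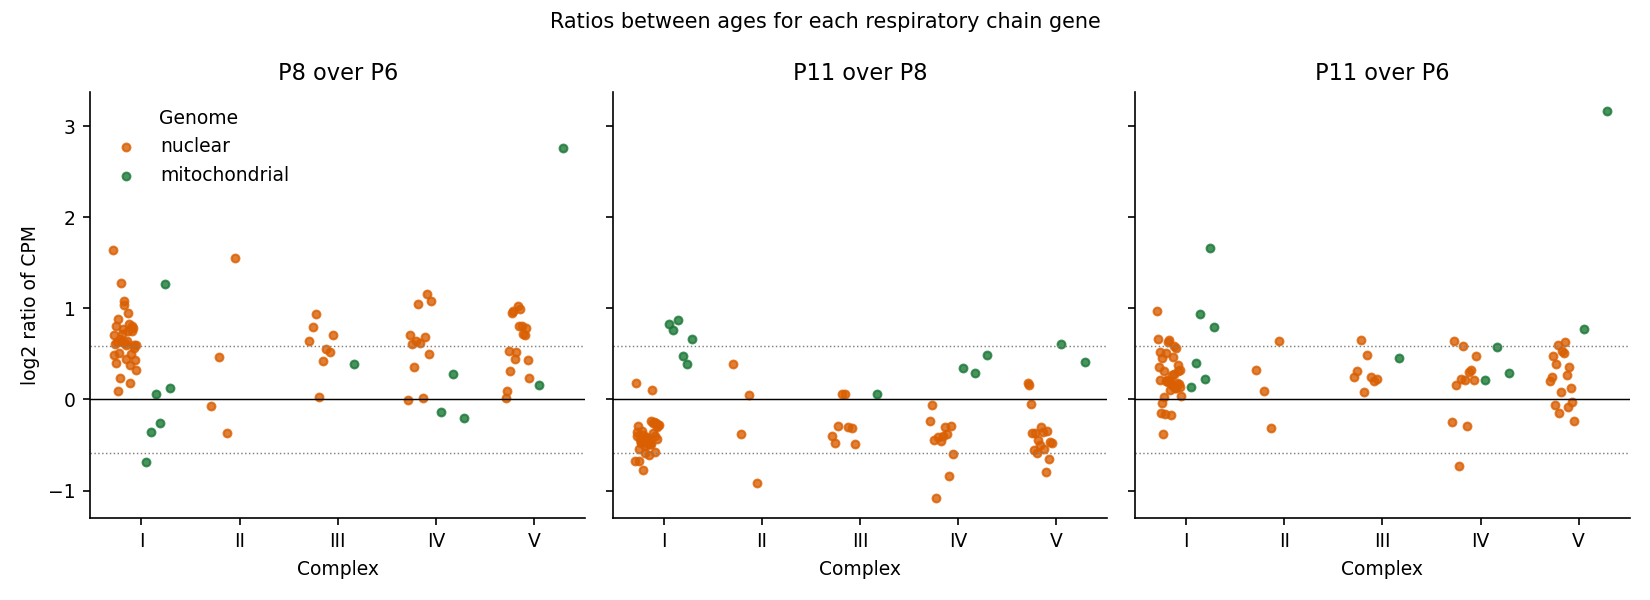
Log2 ratio of CPM between pairs of ages for each member tested, by complex on the horizontal axis, with nuclear and mitochondrial genes in separate colours. Of the nuclear genes, 74 lie above 0 at P8 over P6 and 69 lie below 0 at P11 over P8.

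Ndufa1 and Cox6a1 marked the ends of the nuclear set, with the highest P8 over P6 and the lowest P11 over P6 ratio of the 77. Ndufa1 encodes a small membrane subunit that complex I needs for its assembly, and Cox6a1 the widely expressed form of a small complex IV subunit. Their RefSeq promoter windows are shown beside that of Cox8a, the gene of an abundant small complex IV subunit. Cox8a was picked for the highest P11 level among members whose RefSeq start lies inside a GENCODE transcript. It passed 1.5-fold in no pair on the main scale, but did so with TMM factors at P8 over P6. The windows run from 250 bases before to 50 bases after the start, on GRCm38.p6, and all 3 lie on the minus strand. They are 300 bases long and are given 5′ to 3′, with matches to the motifs below in capitals.
Ndufa1, chrX:37191189-37191488: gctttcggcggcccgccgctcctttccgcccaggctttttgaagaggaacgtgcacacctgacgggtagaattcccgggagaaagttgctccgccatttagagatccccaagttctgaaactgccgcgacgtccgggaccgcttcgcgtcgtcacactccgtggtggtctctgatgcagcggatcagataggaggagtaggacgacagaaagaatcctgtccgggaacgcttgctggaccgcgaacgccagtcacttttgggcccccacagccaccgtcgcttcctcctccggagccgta
Cox6a1, chr5:115348909-115349208: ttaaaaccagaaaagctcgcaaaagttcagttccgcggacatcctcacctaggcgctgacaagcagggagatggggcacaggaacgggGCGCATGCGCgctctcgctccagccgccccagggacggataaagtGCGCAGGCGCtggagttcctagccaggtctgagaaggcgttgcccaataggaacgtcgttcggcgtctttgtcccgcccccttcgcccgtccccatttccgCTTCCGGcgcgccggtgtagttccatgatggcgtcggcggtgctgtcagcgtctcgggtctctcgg
Cox8a, chr19:7217567-7217866: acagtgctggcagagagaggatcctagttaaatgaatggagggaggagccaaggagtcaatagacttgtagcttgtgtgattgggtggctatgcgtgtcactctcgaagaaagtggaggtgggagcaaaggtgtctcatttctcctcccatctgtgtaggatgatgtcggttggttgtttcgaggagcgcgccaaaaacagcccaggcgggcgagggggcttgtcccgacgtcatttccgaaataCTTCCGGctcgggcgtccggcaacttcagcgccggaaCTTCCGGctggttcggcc
The search used 4 motifs on both strands, GCGC then A and any base then GCGC for NRF1, CCGGAAG for GABPA, AANATGGCG for YY1 and AAGGTCA for estrogen-related receptors, where N is any base. A place that held the NRF1 letters on both strands was counted once. NRF1 and GABPA are transcription factors known for acting on nuclear respiratory chain genes. The Cox6a1 window held the NRF1 letters at 2 places and the GABPA letters once, that of Cox8a held the GABPA letters at 2 places, and that of Ndufa1 held none of the 4. The RefSeq start of Ndufa1 lies upstream of its start in GENCODE vM21.

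Over the 69 nuclear members with a RefSeq window, 17 (24.6%) held the NRF1 letters, 17 (24.6%) those of GABPA, 10 (14.5%) those of YY1 and 8 (11.6%) those of the estrogen-related receptors. Among the 5751 genes of at least 20 CPM with a window, the shares were 14.7%, 22.9%, 7.56% and 3.83%, and among all 27025 genes with one they were 5.19%, 9.93%, 2.76% and 5.38%. Members higher at P8 than at P6 by 1.5-fold and the rest both included genes with and without a match, 23 of 42 and 16 of 27 holding at least 1 motif. The 27, and so the 69, included Cox6b2, Cox7a1, Cox7b2 and Cox8b, which stayed under 20 CPM and held none of the 4. By motif, the NRF1 letters were held by 10 of the 42 higher members and 7 of the 27 others, the GABPA letters by 11 and 6, the YY1 letters by 6 and 4, and those of the estrogen-related receptors by 8 and 0. No test of these splits was made. A match here is a run of letters, not a measured binding site.

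Complex I was the largest group, and most of its accessory subunits were higher at P8. Of its 36 nuclear members, all tested, 24 were at least 1.5-fold higher at P8 than at P6. At P11, 4 were lower than at P8 by that fold, and 5 were higher than at P6. The shares of all genes were 7.97%, 4.55% and 7.35% in that order. The 7 core subunits, which carry the flavin and the iron-sulfur clusters, summed to 1338 CPM at P6, 1888 CPM at P8 and 1552 CPM at P11, a log2 ratio of 0.50 at P8 over P6. The 29 accessory subunits, which surround the core, summed to 9525 CPM at P6, 15698 CPM at P8 and 11612 CPM at P11, a log2 ratio of 0.72. Accessory genes thus differed more between P8 and P6 than core genes did, although 2 core genes passed 1.5-fold. The core genes also had longer coding lengths, the shortest being 636 bases (Ndufs8). Of the accessory genes with a known coding length, only Ndufa9, Ndufa10 and Ndufv3 were longer than that. The part that length had in this contrast was not tested.

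Ndufa1 stood at 149.8 CPM at P6, 466 CPM at P8 and 293 CPM at P11. It was 3.11-fold higher at P8 than at P6 (log2 1.64, 95% counting interval 1.61 to 1.67) and 1.59-fold lower at P11 than at P8, and at P11 it remained 1.96-fold above P6. Ndufb1-ps, the mouse counterpart of NDUFB1 despite its pseudogene symbol, had 212 CPM at P6, 516 CPM at P8 and 302 CPM at P11. The membrane-arm subunit gene Ndufb4 had 195 CPM at P6, 414 CPM at P8 and 306 CPM at P11. Ndufb3, another of the membrane arm, had 205 CPM at P6, 421 CPM at P8 and 316 CPM at P11. All 3 were over 2-fold higher at P8 than at P6, and the last of them by the least, 2.06-fold.

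The other 20 complex I genes past 1.5-fold at P8 over P6 were Ndufa3, Ndufa5, Ndufa8, Ndufa11, Ndufa12, Ndufa13, Ndufb2, Ndufb5, Ndufb6, Ndufb8, Ndufb9, Ndufb10, Ndufb11, Ndufc1, Ndufc2, Ndufs4, Ndufs5 and Ndufs6 of the accessory part and the core genes Ndufs8 and Ndufv2. Their folds ran from 1.51 for Ndufb6 to 1.94 for Ndufc1. Ndufs7, a core gene that binds an iron-sulfur cluster, lay just short at 1.48-fold. Ndufa13 overlaps the gene Yjefn3 on the same strand, so its reads may be shared.

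Ndufa1, Ndufa3, Ndufb1-ps and Ndufb7 were the 4 that were lower by 1.5-fold at P11 than at P8. Ndufa3 had 164 CPM at P6, 254 CPM at P8 and 159 CPM at P11. Ndufb7 had 300.3 CPM at P6, 408 CPM at P8 and 267 CPM at P11. Both were at P11 below their P6 level, an order that TMM and median-of-ratios factors turned round, and Ndufa1 and Ndufb1-ps were above it.

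Higher by 1.5-fold at P11 than at P6 were Ndufa1, Ndufa10, Ndufb3, Ndufb4 and Ndufc2. Ndufa10, a large matrix-side subunit, had 277 CPM at P6, 388 CPM at P8 and 439 CPM at P11 and so was higher at each later age. Ndufc2, a membrane subunit, had 459 CPM at P6, 814 CPM at P8 and 691 CPM at P11. Ndufa6, which holds the lowest P11 over P6 ratio of the complex, had 272 CPM at P6, 289.7 CPM at P8 and 209 CPM at P11 (log2 -0.38). Ndufs1, the large iron-sulfur subunit, had 85.4 CPM at P6, 96.4 CPM at P8 and 104 CPM at P11 and reached at most 1.22-fold in any pair.

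The 4 genes of complex II did not move together. Sdha, the flavoprotein that oxidizes succinate, had 194 CPM at P6, 184 CPM at P8 and 242 CPM at P11. Sdhb, its iron-sulfur partner, had 189 CPM at P6, 262 CPM at P8 and 201 CPM at P11. Neither passed 1.5-fold in any pair. Of the membrane anchors, Sdhc had 119 CPM at P6, 92.3 CPM at P8 and 95.6 CPM at P11, lowest at P8 on this scale and at P11 with TMM or median-of-ratios factors. Sdhd had 45.7 CPM at P6, 134 CPM at P8 and 71.4 CPM at P11, 2.94-fold higher at P8 than at P6 and 1.88-fold lower at P11 than at P8. Both anchors are needed in equal number in the complex, and their P8 over P6 log2 ratios were -0.36 and 1.56.

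Complex III had 4 of its 8 nuclear members at least 1.5-fold higher at P8 than at P6, against 7.97% of all genes. Of its core proteins, Uqcrc1 had 186 CPM at P6, 189.7 CPM at P8 and 197 CPM at P11. The gene of the other, Uqcrc2, had 184 CPM at P6, 248 CPM at P8 and 258 CPM at P11. Uqcrfs1, the Rieske iron-sulfur protein that passes electrons to cytochrome c1, had 253 CPM at P6, 371 CPM at P8 and 301 CPM at P11, 1.46-fold at P8 over P6. None of Uqcrc1, Uqcrc2 and Uqcrfs1 passed 1.5-fold. The small subunit genes Uqcr10, Uqcr11, Uqcrb and Uqcrq did so at P8 over P6, with folds from 1.56 to 1.92, and Uqcrh lay below at 1.43-fold. Uqcrb, a small subunit next to the ubiquinone site, had 441 CPM at P6, 848 CPM at P8 and 694 CPM at P11. It was the only one of the 8 higher by 1.5-fold at P11 than at P6, at 1.57-fold, although all 8 lay above 0 there. Of all genes, 7.35% were higher in that pair. Cyc1, outside these 8, had log2 ratios on this scale of 0.18 at P8 over P6 and -0.05 at P11 over P6.

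In complex IV, 8 of the 12 nuclear genes tested were higher by 1.5-fold at P8 than at P6, and 3 were lower at P11 than at P8. At P11 over P6 there were 2 higher and 1 lower. The shares of all genes were 7.97%, 4.55%, 7.35% and 12.3% in that order, and 1 lower of 12 is no greater than the last. Cox7c, a small membrane subunit, had 761 CPM at P6, 1698 CPM at P8 and 951 CPM at P11, 2.23-fold higher at P8 than at P6. Cox6c, of similar size, had 784 CPM at P6, 1625 CPM at P8 and 1182 CPM at P11. Ndufa4 had 1023 CPM at P6, 2162 CPM at P8 and 1425 CPM at P11. All of Cox7c, Cox6c and Ndufa4 were higher at P8 than at P6 by 2.07-fold or more.

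Cox5a and Cox6a1 parted at P11. Cox5a, a subunit on the matrix side, had 1287 CPM at P6, 2098 CPM at P8 and 2009 CPM at P11, 1.56-fold higher at P11 than at P6. Cox6a1 had 519 CPM at P6, 666 CPM at P8 and 313 CPM at P11, 1.66-fold lower at P11 than at P6 (log2 -0.73, -0.75 to -0.71) and 2.12-fold lower at P11 than at P8. It was the only nuclear member lower at P11 than at P6 by 1.5-fold, and with TMM factors its log2 ratio was -0.53, short of that fold.

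Several complex IV subunits have forms used in other tissues. Cox4i1, the widely expressed form of subunit 4, had 1541 CPM at P6, 1534 CPM at P8 and 1300.1 CPM at P11, and Cox4i2, known from lung, had at most 0.462 CPM. Cox6a2, the heart and muscle counterpart of Cox6a1, had 0.644 CPM at P6, 0.112 CPM at P8 and 0.0969 CPM at P11. This second form stayed under 1 CPM in every library.

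Cox6b1 had 503 CPM at P6, 782 CPM at P8 and 589.6 CPM at P11, and its testis counterpart Cox6b2 at most 1.06 CPM. Cox7a2 had 763 CPM at P6, 1171 CPM at P8 and 884 CPM at P11. Cox7a1, the heart and muscle form, had 4.33 CPM at P6, 12.2 CPM at P8 and 11.6 CPM at P11, under the level needed for a comparison. Cox7a2l, which takes part in joining complexes III and IV, had 269 CPM at P6, 272 CPM at P8 and 219.6 CPM at P11, and passed 1.5-fold in no pair.

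Cox7b had 374 CPM at P6, 603 CPM at P8 and 462 CPM at P11, and its counterpart Cox7b2 at most 1.17 CPM. Cox8a had 1352 CPM at P6, 1911 CPM at P8 and 1566 CPM at P11. The muscle form Cox8b had 0 UMIs in all 3 libraries, which allows up to 0.0364 CPM at P6, 0.0480 CPM at P8 and 0.0291 CPM at P11, and Cox8c had 1 UMI at P6 and 0 at P8 and P11. Ndufa4l2, a hypoxia-induced relative of Ndufa4, had at most 0.462 CPM. Apart from Cox7a1, each of these tissue-restricted forms had at most 1.17 CPM in any library.

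Complex V differed between its parts. The F1 head, made of the products of Atp5a1 and Atp5b around the catalytic sites, summed to 2012 CPM at P6, 2101 CPM at P8 and 2358 CPM at P11, a log2 ratio of 0.06 at P8 over P6. The peripheral stalk, which holds the head still, summed to 2449.8 CPM at P6, 4258 CPM at P8 and 3322 CPM at P11, a log2 ratio of 0.80. The rotor's c ring summed to 1894 CPM at P6, 3069.5 CPM at P8 and 2156 CPM at P11. For the central stalk of F1 the sums were 1805 CPM at P6, 2753 CPM at P8 and 2167 CPM at P11, and for the small membrane subunits 2232 CPM at P6, 3617 CPM at P8 and 2544 CPM at P11. The head alone was highest at P11, and the other 4 parts at P8. Atp5a1 and Atp5b, with coding lengths of 1659 and 1587 bases, are also the only nuclear genes of the complex over 900 bases. Ratios by coding length are described further on, and the part that length had in this contrast was not tested.

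Of the 17 nuclear genes of complex V, 9 were higher by 1.5-fold at P8 than at P6, against 7.97% of all genes. At P11, 3 were lower than at P8, against 4.55%, and 2 were higher than at P6, not far from the 7.35% of all genes. Atp5b, the catalytic beta subunit, had 1229 CPM at P6, 1309.6 CPM at P8 and 1458 CPM at P11. Atp5a1, the alpha subunit, had 783 CPM at P6, 791 CPM at P8 and 899.8 CPM at P11. Neither differed by more than 1.19-fold in any pair.

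In the peripheral stalk, Atp5f1 had 644 CPM at P6, 1258 CPM at P8 and 978 CPM at P11. Atp5j had 556 CPM at P6, 1108 CPM at P8 and 863 CPM at P11. Both were higher by 1.5-fold at P8 and at P11 than at P6. Atp5o, the subunit that joins the stalk to the head, had 517 CPM at P6, 608 CPM at P8 and 437 CPM at P11 and the lowest P11 over P6 ratio of the complex (log2 -0.24). Atp5h, the fourth of the stalk, was 1.75-fold higher at P8 than at P6.

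Atp5g1, Atp5g2 and Atp5g3 encode the same mature c subunit behind different import signals. Atp5g3 had 657 CPM at P6, 1340.1 CPM at P8 and 947 CPM at P11, 2.04-fold higher at P8 than at P6. Atp5g1 had 657 CPM at P6, 895 CPM at P8 and 594 CPM at P11, and was 1.51-fold lower at P11 than at P8. Atp5g2 had 579.8 CPM at P6, 835 CPM at P8 and 615 CPM at P11 and passed 1.5-fold in no pair. The P11 over P6 log2 ratios of the 3 were -0.14 for Atp5g1, 0.09 for Atp5g2 and 0.53 for Atp5g3, with that of Atp5g1 turning to just above 0 with TMM or median-of-ratios factors.

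The small genes Atp5e, Atp5j2, Atp5k, Atp5l and Atp5md were the remaining ones higher by 1.5-fold at P8 than at P6, with folds from 1.63 to 1.93. Atp5k, a subunit at the dimer interface, had 228 CPM at P6, 375 CPM at P8 and 215 CPM at P11. Atp5md, of the same membrane part, had 402 CPM at P6, 692 CPM at P8 and 439.5 CPM at P11. Both were lower at P11 than at P8 by 1.5-fold and stood near their P6 level at P11.

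The mitochondrial genome's members differed gene by gene. At P8 over P6, 2 of the 12 tested were at least 1.5-fold higher (mt-Atp8 and mt-Nd4l) and mt-Nd1 was lower. At P11 over P8, 5 were higher (mt-Nd1, mt-Nd2, mt-Nd3, mt-Nd5 and mt-Atp6), and at P11 over P6 5 were higher (mt-Nd3, mt-Nd4l, mt-Nd5, mt-Atp6 and mt-Atp8) and 0 lower. Of all genes, 7.97% were higher and 21.7% lower at P8 over P6, and 10.4% higher and 4.55% lower at P11 over P8. At P11 over P6, 7.35% were higher and 12.3% lower.

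Among complex I genes of this genome, mt-Nd1 had 1941 CPM at P6, 1203 CPM at P8 and 2132 CPM at P11. The gene mt-Nd2 had 1176 CPM at P6, 916 CPM at P8 and 1556 CPM at P11, and mt-Nd4 had 1841 CPM at P6, 1538 CPM at P8 and 2144 CPM at P11. These 3 were lowest at P8, except that with TMM or median-of-ratios factors the P8 over P6 ratio of mt-Nd4 lay just above 0 and mt-Nd1 fell short of 1.5-fold. The gene mt-Nd3 had 222 CPM at P6, 232 CPM at P8 and 426 CPM at P11, and mt-Nd5 had 209.5 CPM at P6, 228 CPM at P8 and 363 CPM at P11, both highest at P11. The gene mt-Nd6, the only member on the other strand, had 11.5 CPM at P6, 14 CPM at P8 and 16.2 CPM at P11 and was not compared.

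For complex III, mt-Cytb had 4419 CPM at P6, 5799 CPM at P8 and 6066 CPM at P11 and passed 1.5-fold in no pair. Of the catalytic core of complex IV, mt-Co1 had 4364 CPM at P6, 3963 CPM at P8 and 5040.5 CPM at P11, mt-Co2 had 6012 CPM at P6, 7314 CPM at P8 and 8975 CPM at P11, and mt-Co3 had 6238 CPM at P6, 5421 CPM at P8 and 7611 CPM at P11. None of the 3 passed 1.5-fold either, mt-Co2 coming nearest at 1.49-fold at P11 over P6. The complex V gene mt-Atp6, whose product forms the proton path beside the c ring, had 6470.1 CPM at P6, 7224 CPM at P8 and 11033 CPM at P11.

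Shares of the mitochondrial UMIs, which the cap on a cell does not set directly, moved with these levels. The gene mt-Atp6 took 19.6% of them at P6, 21.2% at P8 and 24.1% at P11. For mt-Cytb the share was 13.4%, 17% and 13.3% at the same ages, and that of mt-Nd1 5.88%, 3.52% and 4.66%. The first grew with age, the next was highest at P8 and mt-Nd1 was lowest there.

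Both pairs of overlapping genes, each carried on a shared message, had the lowest share of the upstream gene at P6. The genes mt-Atp8 (positions 7766 to 7969 of the mitochondrial genome, mm10) and mt-Atp6 overlap on the same strand, as do mt-Nd4l and mt-Nd4. The level of mt-Atp8 was 11.9 CPM at P6, 80.6 CPM at P8 and 107 CPM at P11, from 982, 5038 and 11020 UMIs, 6.75-fold higher at P8 than at P6 and 8.95-fold higher at P11 than at P6 (log2 3.16, 3.07 to 3.26). The level of mt-Nd4l was 92.0 CPM at P6, 222 CPM at P8 and 292 CPM at P11. Per 100 mt-Atp6 UMIs there were 0.184 mt-Atp8 UMIs at P6, 1.12 at P8 and 0.968 at P11. Per 100 mt-Nd4 UMIs there were 5 mt-Nd4l UMIs at P6, 14.5 at P8 and 13.6 at P11.

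In other sets of barcodes the P6 library stood apart in the same way. Barcodes over the mitochondrial limit held 0.216, 1.23 and 0.871 mt-Atp8 UMIs per 100 of mt-Atp6 at P6, P8 and P11. They held 5.87, 21.0 and 15.2 mt-Nd4l UMIs per 100 of mt-Nd4. In cells of 10000 to 20000 UMIs the mt-Atp8 values were 0.178, 1.09 and 0.906. Reads in the overlaps can come from either gene of a pair, and no source used here says how such reads were counted. The part that library preparation had in the gap between P6 and the later ages cannot be told apart from age.

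**Figure D3:**
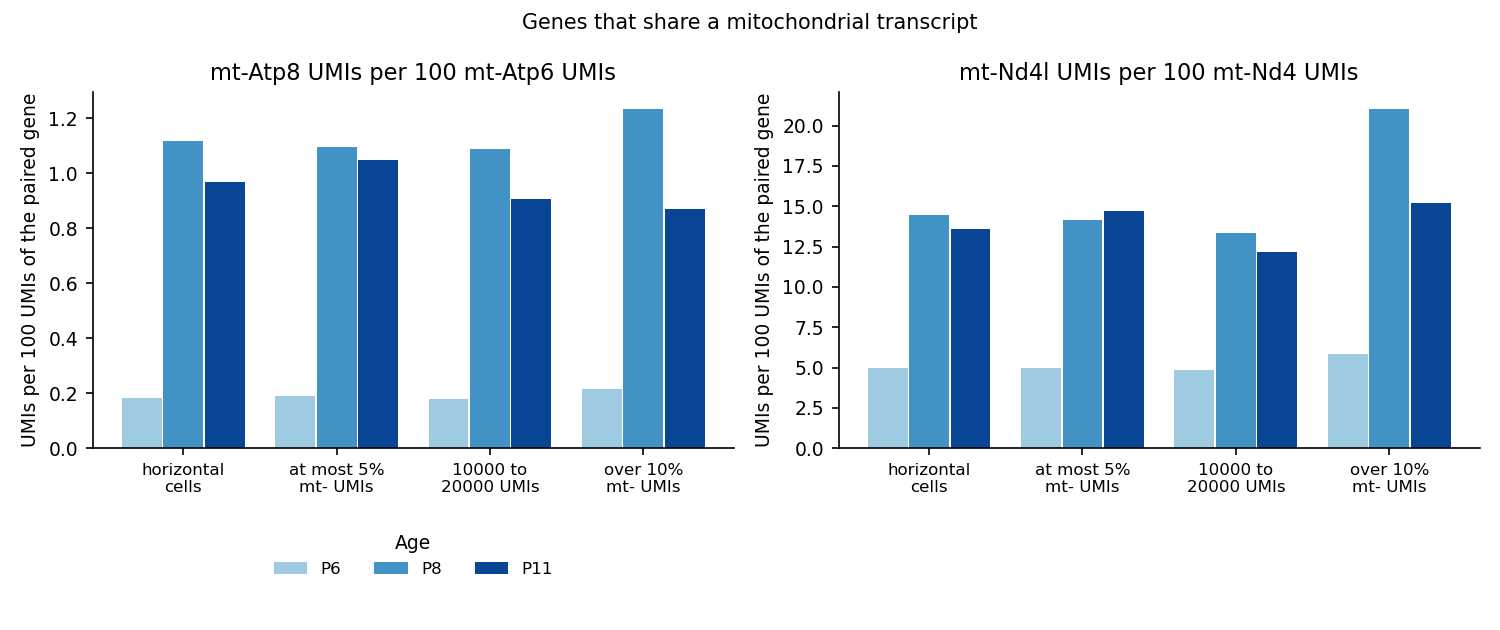
UMIs of mt-Atp8 per 100 UMIs of mt-Atp6 and of mt-Nd4l per 100 UMIs of mt-Nd4, in 4 sets of barcodes, with 1 bar per library. In every set the P6 bar is the lowest, as in the horizontal cells, where mt-Atp8 stands at 0.184, 1.12 and 0.968.

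Cell by cell, the nuclear level at P8 lay above most of the P6 range. The median cell had 34097 CPM of nuclear members at P6, 54298 CPM at P8 and 41562 CPM at P11. The 5th to 95th percentiles ran from 12817 to 49865 CPM at P6, from 28936 to 66661 CPM at P8 and from 22676 to 54136 CPM at P11. The median P8 cell thus lay above the 95th percentile of the P6 cells. For the mitochondrial members the medians were 31327 CPM at P6, 33175 CPM at P8 and 45597 CPM at P11, and the 5th to 95th percentiles ran from 11468 to 55970, from 17364 to 64306 and from 28234 to 65747 CPM.

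**Figure D4:**
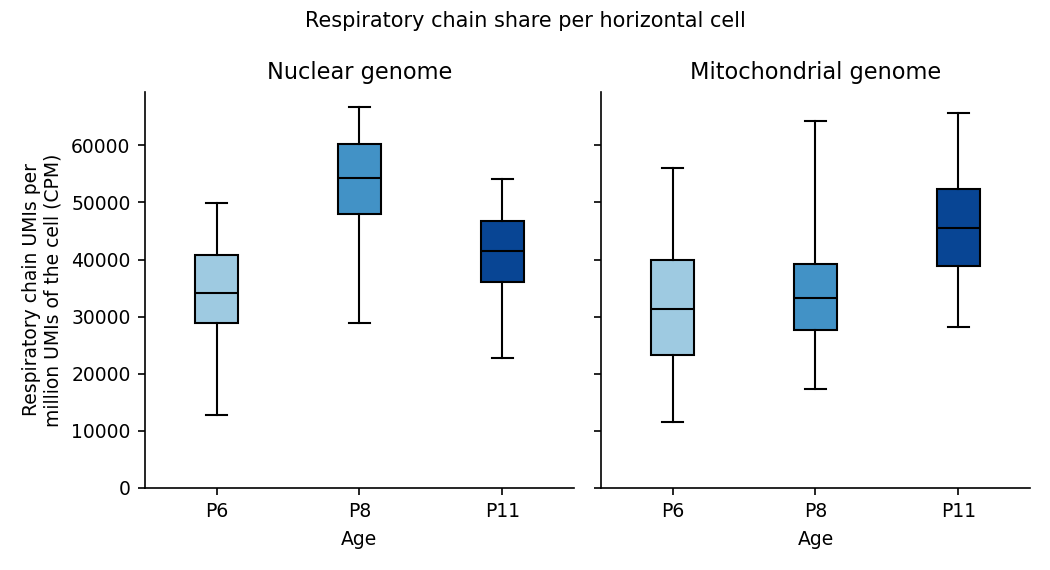
Respiratory chain UMIs per 1000000 UMIs of each horizontal cell, by age, for the nuclear and the mitochondrial genome, with boxes from the 25th to the 75th percentile, a line at the median and whiskers at the 5th and 95th percentiles. The nuclear median is highest at P8 (54298 CPM) and the mitochondrial one at P11 (45597 CPM).

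Nuclear complexes varied together across cells, and apart from the mitochondrial members. The Spearman correlation between nuclear complex I and complex V was 0.86 at P6, 0.88 at P8 and 0.89 at P11, over 7145, 3153 and 4757 cells, and between complexes I and IV it was 0.85, 0.85 and 0.87. For these values complexes were taken by symbol, so Ndufa4 and Ndufa4l2 counted with complex I and not with complex IV. Between the nuclear and the mitochondrial sum the correlation was 0.02, -0.17 and 0.06. The values of a cell share its total count, and its depth and RNA quality.

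The nuclear sum also went with Malat1, a long noncoding RNA that stays in the nucleus. The Spearman correlation with Malat1 was -0.72 at P6, -0.79 at P8 and -0.75 at P11, against -0.16, 0.10 and -0.27 for the mitochondrial sum. With the summed genes of cytosolic ribosomal protein symbols, mostly short and abundant and with kinase genes among them, it was 0.68, 0.67 and 0.72. Malat1 itself stood at 20337 CPM at P6, 15319 CPM at P8 and 21409 CPM at P11, lowest where the nuclear respiratory chain was highest.

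Cells of 10000 to 20000 CPM Malat1, 2170 at P6, 670 at P8 and 1100 at P11, were therefore taken alone. Their nuclear sums were 36635 CPM at P6, 52865 CPM at P8 and 43229 CPM at P11. The log2 ratio at P8 over P6 was 0.53 there, against 0.65 in all horizontal cells, and the order of the libraries was the same. Mitochondrial sums in these cells were 34802, 35000 and 48157 CPM.

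Short genes as a class differed between the libraries in the same direction. Over all 6914 genes with a coding length, the Spearman correlation of the log2 ratio with that length was -0.55 at P8 over P6, and over the 76 nuclear members it was -0.54. At P11 over P8 these were 0.53 for all genes and 0.62 for the members. Genes are not independent replicates, and each ratio shares its libraries with all others.

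Members had higher medians than all tested genes of like coding length at P8 over P6. With coding lengths under 300 bases, 19 members had a median log2 ratio of 0.71, against 0.42 over 165 genes. From 300 to 900 bases the medians were 0.63 over 46 members and 0.24 over 1910 genes, and over 900 bases 0.23 over 11 members and -0.29 over 4839 genes. At P11 over P8 the medians were -0.48 for members against -0.41 for all genes in the shortest class, -0.41 against -0.21 in the middle class, and 0.06 against 0.19 in the longest.

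Of the 76 nuclear members with a coding length tested at P11 over P8, 0 were higher by 1.5-fold. The 8 with a log2 ratio above 0 reached at most 0.39 (Sdha). Of the 11 over 900 bases, 7 lay above 0 at P11 over P8, namely Ndufa10, Ndufs1, Sdha, Uqcrc1, Uqcrc2, Atp5a1 and Atp5b. Of the 65 shorter ones, Sdhc alone lay above 0, with a log2 ratio of 0.05. With TMM or median-of-ratios factors Sdhc, Uqcrc1 and Uqcrc2 lay below 0, and with the median-of-ratios factors Ndufs1 did so too. Taken relative to the median of genes of like gene span, the nuclear sum had a log2 ratio of 0.46 at P8 over P6 with 24 members higher by 1.5-fold, and of -0.18 at P11 over P8 with 3 lower. No share of all genes is given for the ratios taken relative to gene span. The part that transcript length had in these differences was not tested.

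**Figure D5:**
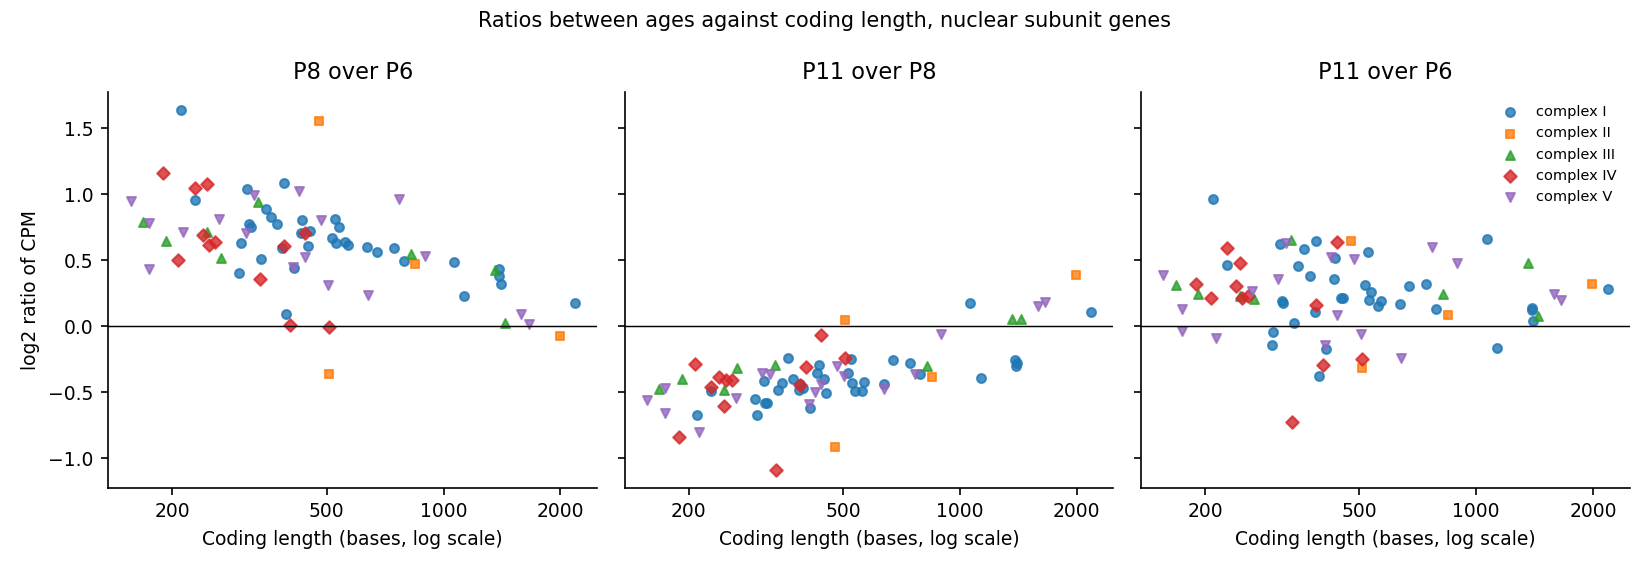
Log2 ratio of CPM against coding length (bases, log scale) for the 76 nuclear members tested with a coding length, for each pair of ages, with a symbol per complex. Members over 900 bases lie near 0 at P8 over P6 (median 0.23), and those under 300 bases higher (median 0.71).

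Genes that assemble and serve the chain were counted in the same way, against the same shares of all genes. Of 47 assembly factors, 37 were tested, 10 of them higher and 0 lower at P8 than at P6, against 7.97% and 21.7% of all genes. At P11 over P6, 2 were higher, a share no greater than the 7.35% of all genes. Those 2 were Sdhaf4, a complex II factor, at 43.0 CPM at P6, 100.2 CPM at P8 and 123 CPM at P11, and Cox17, a copper carrier for complex IV, at 102 CPM at P6, 256 CPM at P8 and 179 CPM at P11. Of 17 electron carriers and exchangers tested, 5 were higher at P8 than at P6 and 0 lower, against the same 7.97% and 21.7%. This list held the chain subunits Ndufab1 and Cyc1, and Ndufab1 was among the 5, at 2.02-fold. Slc25a4, which exchanges ADP for ATP, had 2404 CPM at P6, 3873 CPM at P8 and 3295 CPM at P11. Etfb, of the electron transfer flavoprotein, had 63.6 CPM at P6, 128 CPM at P8 and 120.0 CPM at P11, and Cycs, cytochrome c, had 227 CPM at P6, 333 CPM at P8 and 265 CPM at P11.

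The mitochondrial ribosome, which translates the 13 mitochondrial members, had 21 of 77 genes higher and 0 lower at P8 than at P6, with a median log2 ratio of 0.44, against 7.97% and 21.7% of all genes and a median of -0.14. At P11 over P8, 0 of 76 were higher and 8 lower, against 10.4% and 4.55%. At P11 over P6, 4 of 77 were higher and 0 lower, the higher share being no greater than the 7.35% of all genes. Of 20 genes for mitochondrial DNA upkeep, transcription and translation, 11 were tested at P8 over P6, with 3 higher and 0 lower, against 7.97% and 21.7%. Tfam, which packs and transcribes mitochondrial DNA, had 28.9 CPM at P6, 42.8 CPM at P8 and 47.1 CPM at P11, 1.63-fold higher at P11 than at P6. Tufm, an elongation factor of mitochondrial translation, had 37.3 CPM at P6, 26.7 CPM at P8 and 22.9 CPM at P11 and was the only one of this list lower at P11 than at P6 by 1.5-fold.

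Of 7 regulators of mitochondrial biogenesis tested, 0 were higher and 2 lower by 1.5-fold at P8 than at P6, a share near the 21.7% of all genes that were lower. Nrf1, the factor whose letters were searched above, had 107 CPM at P6, 47.7 CPM at P8 and 82.7 CPM at P11. Esrrg, an estrogen-related receptor, had 322 CPM at P6, 196 CPM at P8 and 316 CPM at P11. Both were lowest at P8, the age at which Tfam of the same list lay between its other levels. With TMM or median-of-ratios factors Esrrg differed by less than 1.5-fold between P8 and P6. As a class, the fifth of tested genes with the longest spans had a median log2 ratio of -0.73 at P8 over P6.

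Of 16 citrate cycle and pyruvate dehydrogenase genes, 2 were higher and 0 lower at P8 than at P6, with a median log2 ratio of 0.09. Of 22 import and cristae genes, 5 were higher and 0 lower. Over all genes the shares were 7.97% higher and 21.7% lower, and the citrate cycle count of 2 higher is near the first. Chchd10, a protein of the intermembrane space, had 49.9 CPM at P6, 93.5 CPM at P8 and 149.6 CPM at P11, higher at each later age. Of 88 tested genes with symbols of cytosolic ribosomal proteins, 4 were higher and 4 lower at P8 than at P6. The shares of all genes were the same as above, and the median log2 ratio of the 88 was 0.26. Those symbols also took in kinase genes and Rps19bp1, which are not ribosomal proteins. The kinase genes Rps6ka2 and Rps6ka3 were among the 4 lower, with log2 ratios of -0.63 and -1.21. At P11 over P8, 27 of the 88 were lower, against 4.55% of all genes, with a median of -0.50. The 2 higher there, against 10.4% of all genes, were the kinase genes Rps6kc1 and Rps6ka2. At P11 over P6, 0 of the 88 were higher and 11 lower, Rps6ka3 among them, with a median of -0.32. The lower share was near the 12.3% of all genes.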

How the data were processed

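The authors deposited raw UMI counts per gene and barcode for 3 libraries, 1 per age, from horizontal cells sorted from Cx57icre;Ai14 retinas. Per the submitters' processing notes they were made with Cell Ranger 7.1.0 on mm10. Not given in the sources used here were the annotation release, intron counting and the treatment of reads that match more than 1 gene. Deposited totals were 87939202, 65546590 and 105561999 UMIs at P6, P8 and P11, with at least 500 per barcode.

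From these counts, barcodes were kept at 1000 genes, 10% mitochondrial UMIs and 2 of 3 gate genes, as given above. Counts were summed per library to 82305608, 62520239 and 103160766 UMIs and divided by them to give CPM. Sums carry exact Poisson 95% intervals and ratios exact conditional binomial 95% intervals. No doublets were removed. As an alternative, 512, 165 and 230 cells with high Scrublet scores (scanpy 1.11.5) were taken out, since the caller's own threshold marked 0, 8 and 0. Positions and coding lengths came from GENCODE vM21, in which all 98 members matched by gene ID.

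With 1 library per age no test was made. A gene was compared at 20 CPM or more at its higher age and counted at 1.5-fold. Named were all mitochondrial members, every nuclear member past 1.5-fold in any pair, the highest and lowest P11 over P6 ratio of each complex, and fixed isoform sets. Ndufs1, Ndufs7, Sdha, Sdhb, Uqcrc2, Uqcrfs1, Uqcrh, Atp5a1, Atp5b and the genes named from the companion lists were chosen after their values were seen. The members and lists were chosen with earlier results of these data known. Alternatives changed the cell filter, scaling (edgeR 4.0.16 in R 4.3.3 for TMM factors), weighting and thresholds. Scripts ran on Python 3.11.15 with numpy 2.4.6, scipy 1.17.1, pandas 2.3.3 and matplotlib 3.10.9, and were tested on simulated data.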

Additional observations from a re-analysis of the deposited data

How the results depend on the processing

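In all horizontal cells the nuclear log2 ratio was 0.65 at P8 over P6, -0.38 at P11 over P8 and 0.27 at P11 over P6, and the mitochondrial one 0.05, 0.42 and 0.47. The sign of each of these 6 ratios was kept under every alternative run, and no named value past 1.5-fold changed sign under any. TMM and median-of-ratios factors moved every log2 ratio by 0.28 and 0.32 at P8 over P6, by -0.08 and -0.12 at P11 over P8, and by 0.20 each at P11 over P6. With TMM factors, the nuclear log2 ratio was 0.93 at P8 over P6, -0.46 at P11 over P8 and 0.47 at P11 over P6, and the mitochondrial log2 ratio was 0.33 at P8 over P6, 0.34 at P11 over P8 and 0.67 at P11 over P6. With median-of-ratios factors, the nuclear log2 ratio was 0.96 at P8 over P6, -0.50 at P11 over P8 and 0.47 at P11 over P6, and the mitochondrial log2 ratio was 0.36 at P8 over P6, 0.30 at P11 over P8 and 0.67 at P11 over P6. Scaled to nuclear-gene UMIs alone, the nuclear log2 ratio was -0.36 at P11 over P8 and 0.29 at P11 over P6, and the mitochondrial log2 ratio was 0.44 at P11 over P8 and 0.49 at P11 over P6. As a mean over cells, the nuclear log2 ratio was 0.62 at P8 over P6, -0.37 at P11 over P8 and 0.25 at P11 over P6, and the mitochondrial log2 ratio was 0.12 at P8 over P6, 0.38 at P11 over P8 and 0.50 at P11 over P6. At a 5% mitochondrial limit, the nuclear log2 ratio was 0.66 at P8 over P6 and -0.40 at P11 over P8, and the mitochondrial log2 ratio was 0.069 at P8 over P6, 0.33 at P11 over P8 and 0.40 at P11 over P6. With no mitochondrial limit, the nuclear log2 ratio was 0.66 at P8 over P6, -0.37 at P11 over P8 and 0.29 at P11 over P6, and the mitochondrial log2 ratio was 0.015 at P8 over P6, 0.35 at P11 over P8 and 0.36 at P11 over P6. With all 3 gate genes required, the nuclear log2 ratio was 0.27 at P11 over P6, and the mitochondrial log2 ratio was 0.046 at P8 over P6 and 0.42 at P11 over P8. At 3000 genes or more, the nuclear log2 ratio was 0.65 at P8 over P6, -0.38 at P11 over P8 and 0.27 at P11 over P6, and the mitochondrial log2 ratio was 0.038 at P8 over P6 and 0.43 at P11 over P8. With doublets removed, the nuclear log2 ratio was 0.65 at P8 over P6 and 0.27 at P11 over P6, and the mitochondrial log2 ratio was 0.057 at P8 over P6 and 0.48 at P11 over P6. Relative to genes of like span, the nuclear log2 ratio was 0.46 at P8 over P6, -0.18 at P11 over P8 and 0.26 at P11 over P6. In cells of 10000 to 20000 UMIs, the nuclear log2 ratio was 0.72 at P8 over P6, -0.37 at P11 over P8 and 0.36 at P11 over P6, and the mitochondrial log2 ratio was 0.023 at P8 over P6, 0.50 at P11 over P8 and 0.52 at P11 over P6. In cells of 10000 to 20000 CPM Malat1, the nuclear log2 ratio was 0.53 at P8 over P6, -0.29 at P11 over P8 and 0.24 at P11 over P6, and the mitochondrial log2 ratio was 0.008 at P8 over P6, 0.46 at P11 over P8 and 0.47 at P11 over P6. The last pair of cell sets, and the placing of Ndufa4 and Ndufa4l2 with complex I, were chosen after seeing the data. With those genes in complex I, its nuclear sum was 11886 CPM at P6, 19748 CPM at P8 and 14589 CPM at P11, and that of complex IV was 8756, 13281 and 10157 CPM. Counts of nuclear members moved by over 1.5 times as follows. At P8 over P6 the count of higher members, 46, became 30 in cells of 10000 to 20000 CPM Malat1, 24 relative to genes of like span and 9 at 2-fold, and the count of lower members, 0, became 1 at the smaller fold limit tried and 4 with genes of 1 UMI or more at either age. At P11 over P8 the count of lower members, 11, became 17 with TMM factors, 28 with median-of-ratios factors, 52 at the smaller fold limit tried, 1 at 2-fold and 3 relative to genes of like span, and that of higher members, 0, became 1 at the smaller fold limit tried and 1 with genes of 1 UMI or more. At P11 over P6 the count of higher members, 11, became 22 with either set of factors, 25 at the smaller fold limit tried and 0 at 2-fold, and that of lower members, 1, became 0 with either set of factors, 2 at the smaller fold limit tried, 0 at 2-fold and 5 with genes of 1 UMI or more. Shares of all genes moved too. At P8 over P6, 7.97% were higher, against 6.30% in cells of 10000 to 20000 CPM Malat1. At P11 over P8, 4.55% were lower, against 7.18% with TMM and 8.79% with median-of-ratios factors. At P11 over P6, 7.35% were higher and 12.3% lower. They were 14% and 6.89% with TMM and 14% and 6.91% with median-of-ratios factors. For other fold limits, 1 UMI or more and like span, no share of all genes is given here. Beyond the part fixed by how each alternative is built, the cause was not tested. No paired analysis was possible because each age has 1 library. Depth limits the 8 complex IV isoforms under 20 CPM, and intervals cover counting error only.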

Other observations

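Barcodes left out for a mitochondrial share over 10% but with the gene minimum and the marker gate met were 641 in the P6, 292 in the P8 and 153 in the P11 library. Their nuclear respiratory chain sum was 13562 CPM at P6, 24411 CPM at P8 and 19080 CPM at P11, again highest at P8. Their mitochondrial sum was 144332 CPM at P6, 138896 CPM at P8 and 133955 CPM at P11, and their Malat1 level was 45156, 64216 and 55770 CPM. Barcodes of sufficient genes and mitochondrial share that failed the marker gate, 427 at P6, 129 at P8 and 186 at P11, had nuclear sums of 18478, 36773 and 27045 CPM.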
